A study of Mus musculus with 74 samples.

Results

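The comparison described here set medullary thymic epithelial cells of Aire C442G/C442G mice against those of Aire +/C442G mice, 6 libraries against 5. These 11 were chosen by genotype label from the 74 libraries of the series. All came from sorted mTEChi, the mature medullary cells that carry much MHC class II, of C57BL/6 mice aged 4 to 7 weeks, and each library was made by bulk MARS-seq, which reads tags from the 3' end of transcripts. The homozygotes carry the C442G allele on both chromosomes and have no normal Aire copy. The heterozygotes carry 1 C442G and 1 normal copy, and 3 Aire +/+ libraries of the same line stand beside them. The question put to the comparison is what the remaining normal copy still supports next to an allele described as dominant. Homozygotes also carry a further C442G copy, so loss of the normal copy and gain of a mutant copy cannot be told apart. The labels do not say how the allele was introduced, whether cells of several mice were pooled in a library, or whether the mice were littermates, so p-values measure the spread between these samples, which may be technical.

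AIRE is a nuclear protein of mature mTEC through which these cells transcribe genes that are otherwise restricted to particular organs, so that developing T cells meet the products of those genes in the thymus. It works as a multimer, and its PHD-type zinc fingers are held in shape by cysteine and histidine residues that bind zinc. Mutant AIRE proteins can enter the same multimers as normal AIRE, which is the usual account of how some alleles act in heterozygotes.

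The stretch of Aire around the altered residue is shown because the groups were labelled by the allele at this residue. In the GENCODE annotation of build GRCm38, Aire (ENSMUSG00000000731.15) occupies 78030022 to 78043610 of chromosome 10 and is read from the minus strand. Counting residues by the number in the allele name, C442G, among the coding transcripts only Aire-212, with 548 residues, has a cysteine codon there. The labels do not name the transcript their numbering follows. That codon lies in exon 11 of 14, at chr10:78034648-78034650. The reference sequence is given 5′ to 3′ on the coding strand for chr10:78034603-78034695, with the cysteine codon in capitals.
Region of the C442G codon: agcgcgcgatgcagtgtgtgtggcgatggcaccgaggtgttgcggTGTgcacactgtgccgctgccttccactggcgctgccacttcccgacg

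Library totals of the line ran from 1751301 to 4189258 counts, and the most abundant gene, in most libraries the MHC class II gene H2-Ab1, took 1.59% to 3.63% of a library. The table listed 16306 genes and 13624 passed the filter on low counts. No pair of libraries of a genotype agreed within sampling noise, and both sexes occurred in each genotype. On the first principal component of the 500 most variable genes, which carried 87.1% of their variance, wild type lay between -55.7 and -43.7, heterozygotes between -19.4 and -11.8 and homozygotes between 34.1 and 41.1, with no overlap. Markers of mature mTEC were high in every library: their 26 genes summed to 60034 to 69742 CPM (counts scaled to a library total of 1000000) in wild type, 70879 to 94738 in heterozygotes and 91452 to 110521 in homozygotes. In bulk samples, fewer cells of a type and less RNA per cell cannot be told apart.

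Aire transcript itself was more abundant in homozygotes. It stood at 2279, 2056 and 2147 CPM in the 3 wild-type libraries, at 2529.9, 2845, 2496, 2759 and 3309 in the 5 heterozygotes and at 3689 to 4286 (median 3934) in the 6 homozygotes. Every homozygote exceeded every heterozygote, and every heterozygote exceeded every wild type. From heterozygote to homozygote the log2 change was 0.58 ± 0.10 (standard error, edgeR's quasi-likelihood test, Benjamini-Hochberg adjusted p = 4.5e-05), and from wild type to heterozygote it was 0.49 ± 0.12 (edgeR adjusted p = 0.00268). A 3' tag counts both alleles alike and does not check the altered codon.

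Homozygotes held many genes far lower than heterozygotes did and fewer genes slightly higher. Of the 13624 tested genes, edgeR called 2798 (20.5%) at an adjusted p under 0.05: 1926 (14.1%) were lower in homozygotes and 872 (6.4%) higher. At least 2-fold lower were 1210 genes (8.88%), and at least 2-fold higher were 34 (0.25%). The CPM ranges of both groups did not overlap for 1682 genes (12.3%). The authors' deposited table lists 3038 genes at the same threshold for this pair, 2067 lower and 971 higher in homozygotes. The median change over all tested genes was -0.02 on the log2 scale. Beside it, heterozygotes differed from wild type in 3610 genes (26.5%), 1826 lower (13.4%) and 1784 higher (13.1%). The comparisons share the heterozygous libraries, so their values are set side by side and not correlated.

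The largest falls included genes of the gut, the endocrine pancreas, the heart and the brain. Genes with the largest change each way were named only where the ranges of both groups were apart and the higher group averaged 5 CPM or more. For falls named so, expression in heterozygotes and the lack of overlap with homozygotes thus come from this rule. Ins2, a gene for insulin, stood at 67.4, 111 and 111 CPM in wild type, at 37.6, 28.1, 38.7, 36.3 and 33.9 in heterozygotes and at 0 to 1.06 (median 0.133) in homozygotes. The log2 change was -6.64 ± 0.32 (edgeR adjusted p = 1.39e-15). Ppy, which encodes pancreatic polypeptide, was at 118, 95.9, 113, 96.2 and 109 CPM in heterozygotes and at 0 to 2.53 (median 0.766) in homozygotes, against 112, 219 and 219 in wild type. Its change of -6.64 ± 0.28 in this step (edgeR adjusted p = 1.05e-12) stood beside one of -0.67 ± 0.19 from wild type to heterozygote (edgeR adjusted p = 0.0131), a far smaller change. Gal, the galanin gene, behaved likewise, with 165, 155 and 282 CPM in wild type, 139, 127, 127, 117 and 127 in heterozygotes and 2.13 to 4.77 (median 3.47) in homozygotes (log2 change -5.11 ± 0.19, edgeR adjusted p = 7.42e-17).

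Nppa, which encodes atrial natriuretic peptide, was at 22.9, 25.9, 33.5, 27.5 and 25.9 CPM in heterozygotes and at 0 to 0.706 (median 0.276) in homozygotes, a log2 change of -6.51 ± 0.34 (edgeR adjusted p = 2e-15). Avp, the vasopressin gene, was at 105, 159.9 and 180.5 CPM in wild type, 45.4, 49.7, 34.6, 39.4 and 49.3 in heterozygotes and 0.314 to 1.96 (median 0.538) in homozygotes. All 5 heterozygotes thus lay between the wild types and the homozygotes without touching either. Th, which encodes the first enzyme of catecholamine synthesis, had counts in 1 homozygote only, at 1.12 CPM, against 12.4, 13.8, 8.55, 15.3 and 13.9 in heterozygotes. Defa21, an alpha-defensin of Paneth cells, had 1 count over all 6 homozygotes and was 232-fold (95% counting interval 41 to 9202) lower. Its family holds near-identical copies between which reads can be split, so its own level is uncertain.

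The stomach gene Gkn1 was 74.6-fold (95% counting interval 20.2 to 624) lower in homozygotes, and the chymase genes Mcpt4 and Cma1, known from mast cells, were 80.9-fold (95% counting interval 27.2 to 396) and 69.8-fold (95% counting interval 18.8 to 584) lower. The glutathione transferase gene Gstm3 was 65.6-fold (95% counting interval 22 to 322) lower and the embryonic globin gene Hbb-y 85.1-fold (95% counting interval 28.7 to 417) lower. These intervals cover counting error only. Prss29, a serine protease gene, went from 22.9, 20.7, 17.1, 26.7 and 34.5 CPM in heterozygotes to values from 0 to 0.886 (median 0.424) in homozygotes, after 130.2, 129.8 and 179.9 in wild type. Of the 1926 genes called lower, 31 had no count in any homozygote.

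**Figure D1:**
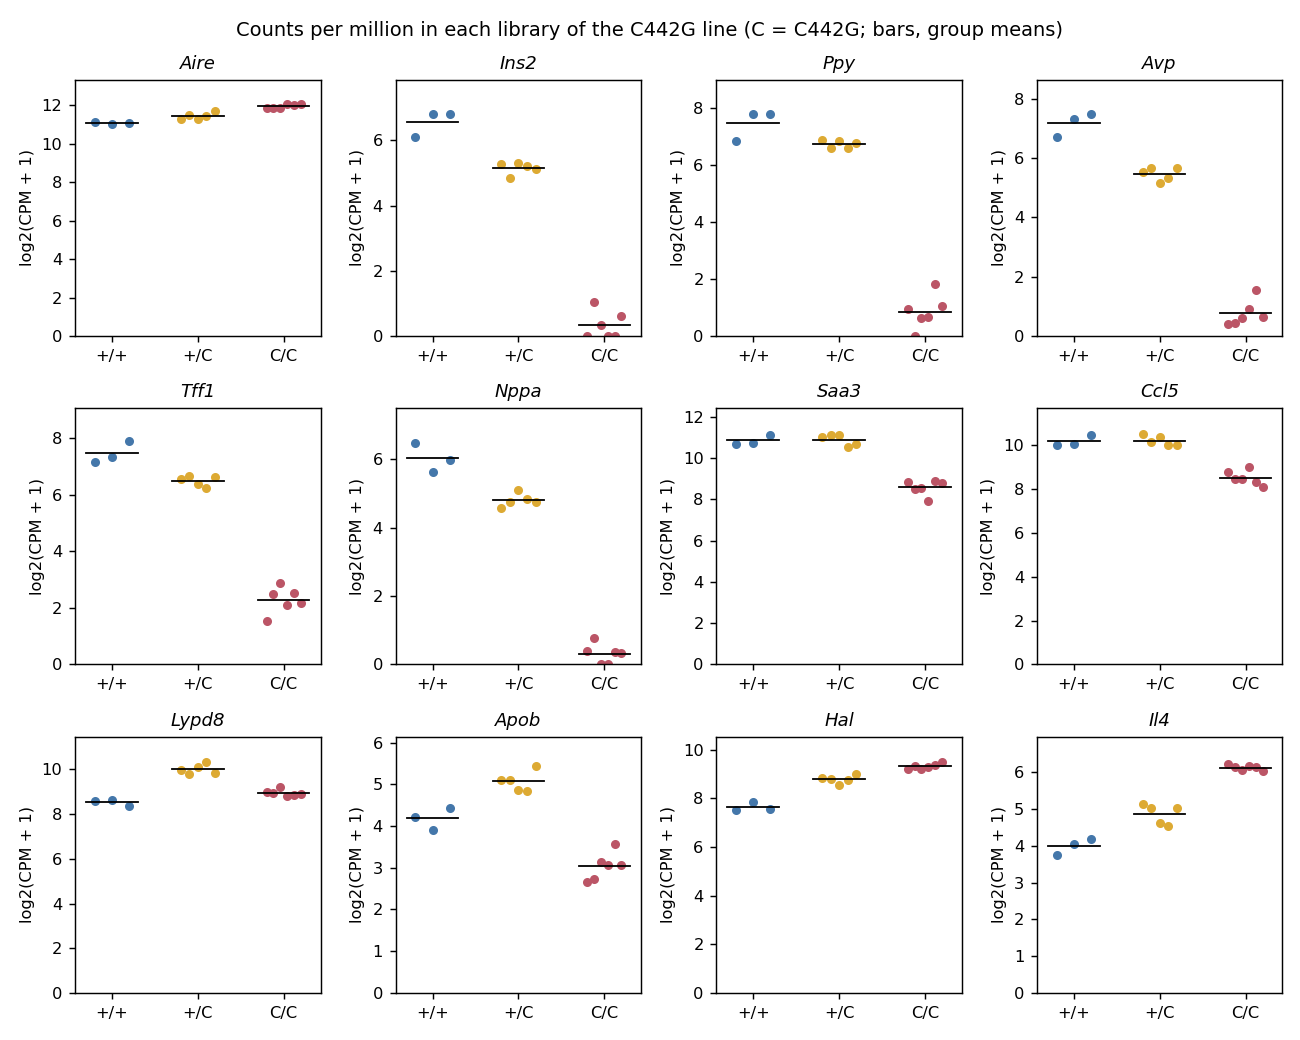
Level of 12 genes in each library of the C442G line, as log2(CPM + 1) on axes from 0, for 3 wild-type, 5 heterozygous and 6 homozygous libraries, with a bar at each group mean. Ins2, Ppy, Avp and Nppa fall to near 0 in homozygotes, Tff1 falls to 1.88 to 6.4 CPM, Saa3 and Ccl5 overlap between wild type and heterozygotes and fall in homozygotes, Lypd8 and Apob are highest in heterozygotes, and Aire, Hal and Il4 step up.

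The promoters of 4 genes among the largest falls are shown so that the start regions can be seen side by side, each as the 120 bases before the RefSeq transcription start (table build GRCm38.p6), 5′ to 3′ on the gene's strand. Capitals mark TATAAA, the core of the TATA box, on that strand.
Defa21 promoter, chr8:21025425-21025544, plus strand: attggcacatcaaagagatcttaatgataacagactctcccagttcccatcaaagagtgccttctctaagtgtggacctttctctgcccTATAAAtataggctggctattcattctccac
Ppy promoter, chr11:102101320-102101439, minus strand: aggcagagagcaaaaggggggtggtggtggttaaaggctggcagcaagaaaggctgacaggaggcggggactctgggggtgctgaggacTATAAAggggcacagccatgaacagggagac
Nppa promoter, chr4:148000602-148000721, plus strand: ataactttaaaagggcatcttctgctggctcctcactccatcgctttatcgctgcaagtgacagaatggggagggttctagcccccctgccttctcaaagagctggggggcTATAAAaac
Hbb-y promoter, chr7:103853208-103853327, minus strand: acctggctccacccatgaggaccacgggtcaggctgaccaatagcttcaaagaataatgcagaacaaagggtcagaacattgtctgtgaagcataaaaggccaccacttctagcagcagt

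In Defa21 and Ppy the match lies where TATA boxes usually sit, between 40 and 16 bases before the start, in Nppa it lies nearer the start, and the Hbb-y stretch holds none. Over all 27025 promoters of that table, 600 (2.22%) hold TATAAA in that window on the gene strand. A match is a description of these letters and not a measured binding site.

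The largest falls were next set against genes known from another line. An Aire-induced set was defined in libraries of the B6 null line as the 1294 of 12700 tested genes (10.2%) that were called in Aire-/- against wild type with a fall of 2-fold or more. In the C442G line 1241 of them were tested, and 900 (72.5%) were lower in homozygotes than in heterozygotes, 3 were higher and 338 were not called, with a median log2 change of -1.51 against -0.02 over all genes. From wild type to heterozygote, 808 were lower and 5 higher, with a median of -1.10. The set took 4.86% ± 0.34 (SD, n = 3) of counts in wild type, 2.66% ± 0.13 (n = 5, range 2.54% to 2.86%) in heterozygotes and 1.0% ± 0.05 (n = 6, range 0.925% to 1.08%) in homozygotes. The 3 genotypes did not overlap, and 11 genes of the set had no count in any homozygote.

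The mirror set held the 598 genes (4.71%) with a called rise of 2-fold or more in Aire-/-, and it moved less evenly. Of 596 tested members, 241 (40.4%) were higher in C442G homozygotes than in heterozygotes and 4 lower, with a median log2 change of 0.31, beside 387 higher and a median of 0.73 from wild type to heterozygote. Its share of counts was 4.30% ± 0.15 (SD, n = 3) in wild type, 6.89% ± 0.36 (n = 5) in heterozygotes and 8.07% ± 0.19 (n = 6) in homozygotes. On the log2 scale the lowered set thus had the larger median in the second step, and the raised set in the first. As a share of counts, the lowered set lost more in the first step (4.86% to 2.66%) than in the second (2.66% to 1.0%).

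**Figure D2:**
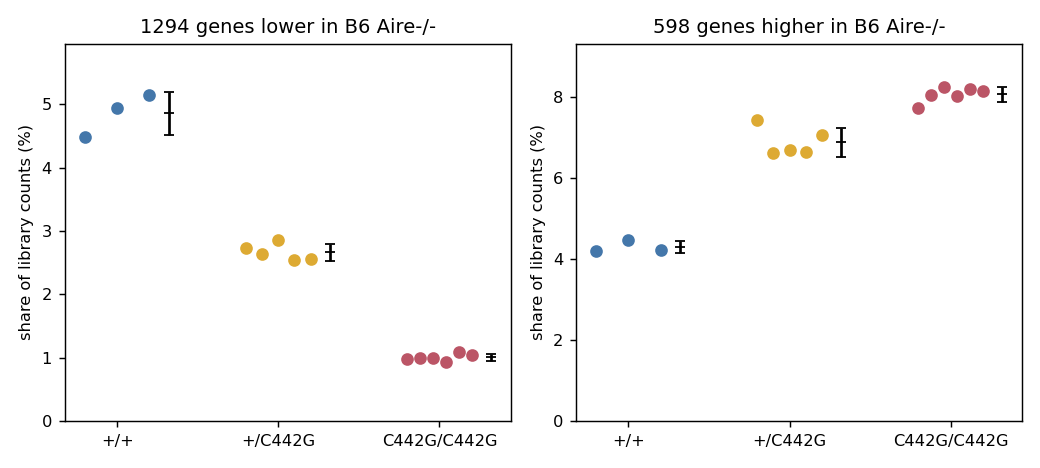
Share of each library's counts, in percent, taken by the 1294 genes lower and the 598 genes higher in B6 Aire-/-, in the C442G line. Points are libraries and bars the mean ± SD; the first share falls from 4.86% over 2.66% to 1.0% and the second climbs from 4.30% over 6.89% to 8.07%.

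Within the Aire-induced set the depth of the fall followed how strongly a gene had fallen in the null line. Of 536 genes that fell by 1 to 2 on the log2 scale there, 269 (50.2%) were called lower in C442G homozygotes, with a median change of -0.78. Of 264 genes that fell by 2 to 3 it was 212 (80.3%), with a median of -1.62. Of 191 genes that fell by 3 to 4 it was 178 (93.2%), with a median of -2.56, and of 250 that fell by more than 4 it was 241 (96.4%), with a median of -4.03. From wild type to heterozygote the medians of these bins were -0.71, -1.14, -1.54 and -1.75. In the weakest bin both steps were thus of similar size, and in the strongest bin the second step was the larger.

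**Figure D3:**
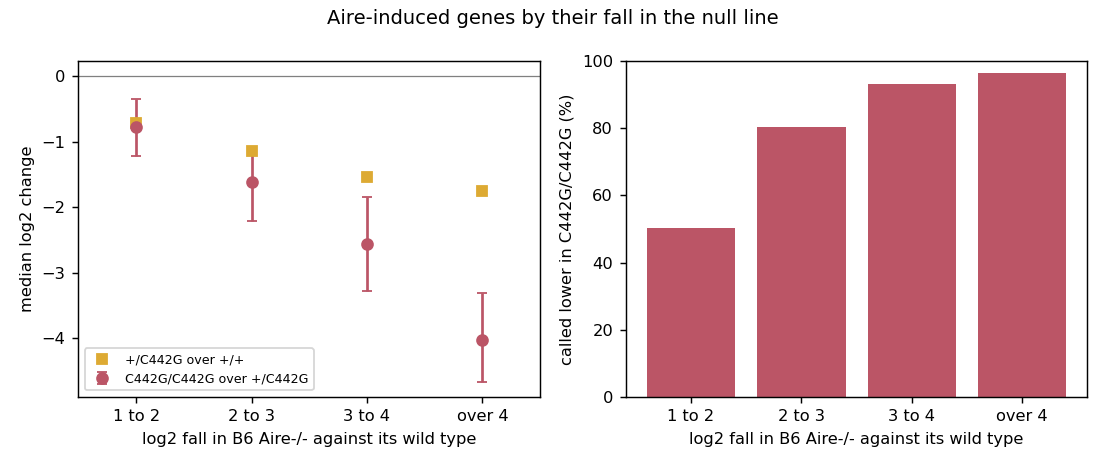
Genes of the Aire-induced set in 4 bins of their log2 fall in B6 Aire-/-. Left, the median log2 change in the C442G line for homozygotes over heterozygotes (circles, with quartiles, from -0.78 to -4.03) and heterozygotes over wild type (squares, from -0.71 to -1.75); right, the percentage called lower in homozygotes, from 50.2% to 96.4%.

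The number of genes detected also fell. After thinning every library to 1751301 counts, 16009 ± 116 genes had at least 1 count in wild type (SD, n = 3), 15606 ± 93.5 in heterozygotes (n = 5, range 15482 to 15705) and 14710 ± 82.2 in homozygotes (n = 6, range 14643 to 14823). The groups did not overlap. The difference of -896 genes between homozygotes and heterozygotes gave p = 0.00433 in a two-sided exact permutation test, the smallest p this design allows.

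Antigens known to depend on Aire fell in homozygotes with few exceptions. Of 29 tested members of that list, 24 fell, 4 rose and 1 was not called, with a median log2 change of -3.12. Sst, the somatostatin gene, went from 58.2, 41, 58, 35.6 and 38.8 CPM in heterozygotes to values from 0.267 to 1.9 (median 0.95) in homozygotes, and Tff3, a trefoil peptide of mucus, from a mean of 136 to 6.6. Those that rose were Csn2, a casein (2029 to 2727 CPM), the secretin gene Sct (194 to 241), Prg2, a granule protein of eosinophils (306 to 449.7), and the calcitonin gene Calca (186 to 311). Reg3g, an antimicrobial lectin, fell less than most, to 1523 CPM from 2672.

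Pancreatic genes fell in 19 of 23 tested cases and rose in none. The exocrine enzymes Cel (18 to 0.475 CPM), Cela3b (11 to 0.452) and Ctrb1 (118 to 17.5) fell beside the islet hormones, and Try4, a trypsinogen with near-identical relatives, was at 0 in all homozygotes. The glucagon gene Gcg was not called. Ptprn and Ptprn2, islet autoantigens of secretory granules, did not pass, at log2 changes of -0.44 and 0.17.

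Gut genes fell in 29 of 33 tested cases, and 2 rose. Tff1, a stomach trefoil peptide, went from 94.8, 102, 83.7, 75.7 and 98 CPM in heterozygotes to values from 1.88 to 6.4 (median 4.06) in homozygotes. Cck, the cholecystokinin gene, went from 44.9, 31.1, 27.9, 30.1 and 41.3 CPM in heterozygotes to values from 0.561 to 2.95 (median 1.72) in homozygotes, again without overlap. Cdh17 and Itln1, an intestinal cadherin and a lectin, did not pass, with 167 against 169 and 91.4 against 94.1 CPM. Liver plasma protein genes fell in 14 of 20 cases and rose in none: Alb, the albumin gene, held a mean of 33.3 CPM in wild type, 3.18 in heterozygotes and 0.182 in homozygotes, and Fgg, a fibrinogen chain, went from 10.1, 18.6, 8.18, 9.07 and 9.24 CPM in heterozygotes to values from 0 to 1.09 (median 0.317) in homozygotes.

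Neuropeptide and neural genes fell in 17 of 23 cases, led by Avp and by Oxt, the oxytocin gene (38.3 to 0.793 CPM), and none rose. The myelin gene Mbp did not pass at a log2 change of -0.0025. Pomc, the precursor of several pituitary hormones, fell in nearly equal steps, by 1.73 on the log2 scale from wild type to heterozygote and by 1.80 from heterozygote to homozygote. Milk and salivary genes fell in 12 of 16 cases and rose in 1, Csn2. Bpifb1, an airway secretory protein, went from 34.8, 39.3, 24.9, 33.7 and 27.1 CPM in heterozygotes to values from 1.18 to 4.54 (median 2.63) in homozygotes, and the salivary genes Dcpp1, Dcpp2 and Dcpp3 fell by 4.56, 5.11 and 4.05 on the log2 scale, though these copies may share reads.

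Muscle and heart antigens were more divided, with 9 of 19 lower and 2 higher. Nppb, which encodes brain natriuretic peptide, was called lower in the second step and not in the first, with 4, 6.83 and 5.69 CPM in wild type, 12.4, 7.34, 3.35, 4.06 and 5.24 in heterozygotes and 0 to 1.07 (median 0.305) in homozygotes. Des, the desmin gene, rose from 127 to 154 CPM, and Ttn, the titin gene, did not pass at 39.4 and 39.7. Lens and retina genes fell in 9 of 13 cases. Cryaa, a lens crystallin, went from 30.2, 28.1, 11.5, 26.5 and 31.4 CPM in heterozygotes to values from 0.8 to 1.41 (median 1.07) in homozygotes, and Rgr, a retinal opsin, rose from 1.93 to 4.24. In each of these 8 organ and antigen lists the percentage called lower was above the 14.1% of all genes.

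**Figure D4:**
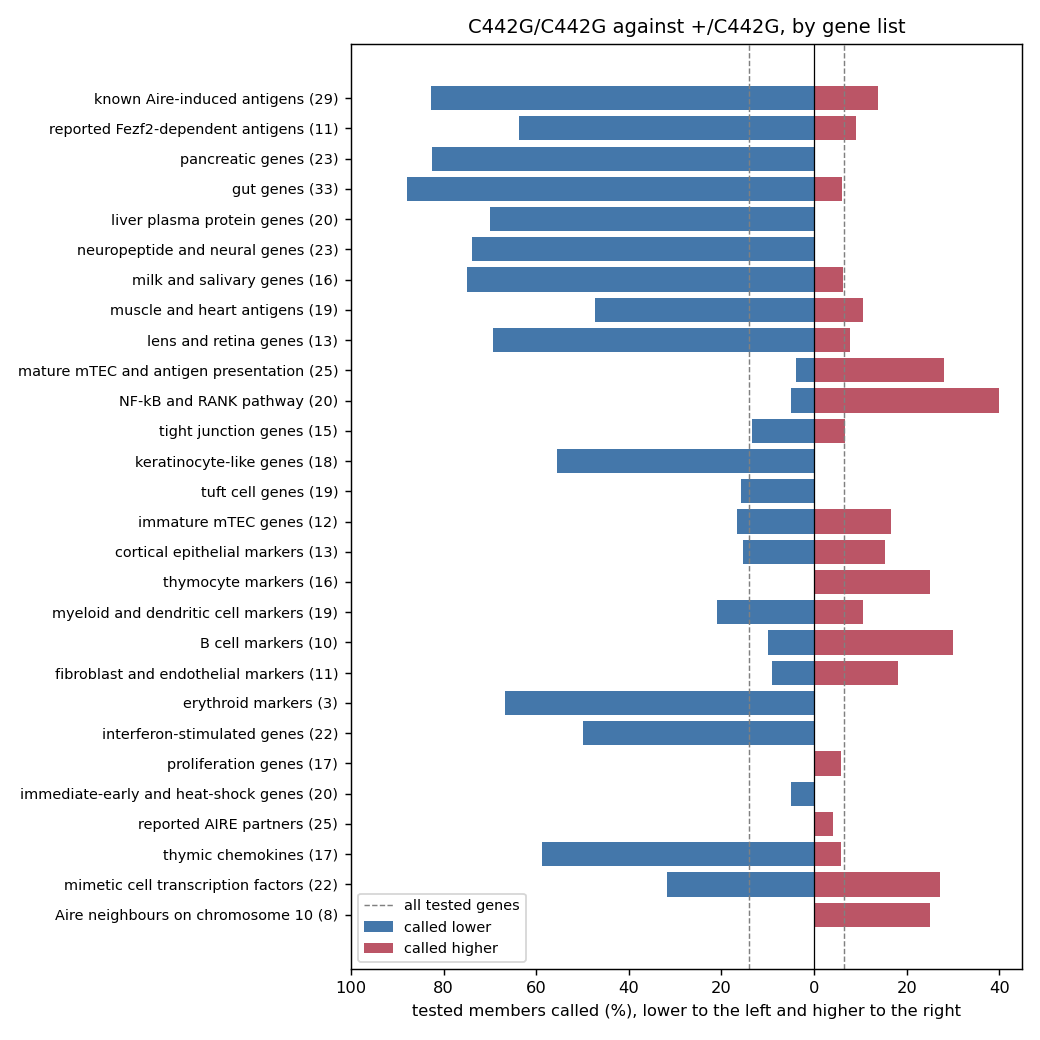
Percentage of tested members of each of 28 gene lists called lower (left) or higher (right) in C442G homozygotes against heterozygotes, with the number tested in brackets and dashed lines at 14.1% and 6.4%, the percentages over all tested genes. Antigen lists lie far to the left, and NF-kB genes (8 of 20 higher) furthest to the right. Mature mTEC genes (7 of 25) reach about as far right as B cell markers (3 of 10) and mimetic cell factors (6 of 22).

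Some abundant genes overlapped between wild type and heterozygotes and lay lower in homozygotes. Saa3, an acute-phase serum amyloid, stood at 1668, 1734 and 2239 CPM in wild type, 2082, 2247, 2218, 1470.2 and 1663 in heterozygotes and 243 to 475 (median 409) in homozygotes (log2 change -2.23 ± 0.16, edgeR adjusted p = 1.17e-09). Apoa4, an intestinal apolipoprotein, stood at 892, 599.9 and 603 CPM in wild type, 519.5, 865, 704, 834 and 695 in heterozygotes and 189 to 298 (median 238) in homozygotes. For both, wild types and heterozygotes overlapped and all homozygotes lay below. The changes from wild type to heterozygote, 0.17 ± 0.19 and 0.18 ± 0.17, were not called (edgeR adjusted p = 0.557 and 0.489).

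Some genes were higher in heterozygotes than in either other genotype, a minority shape. Of the 1926 genes called lower in the second step, 141 had been called higher in the first and 891 lower. Over all 13624 tested genes, 1784 were called higher in the first step and 1826 lower. Lypd8, which keeps flagellated bacteria away from the colon wall, was at 386, 391 and 329.6 CPM in wild type, 1008, 892, 1102, 1284 and 926 in heterozygotes and 450.5 to 586 (median 485) in homozygotes. It rose by 1.63 ± 0.13 on the log2 scale in the first step (edgeR adjusted p = 2.42e-10) and changed by -1.01 ± 0.10 in the second (edgeR adjusted p = 3.75e-09). Resp18, a neuroendocrine secretory protein, was at 316, 345 and 313 CPM in wild type, 834, 585, 944, 731 and 682 in heterozygotes and 422 to 535 (median 459.9) in homozygotes, so that homozygotes lay between the other genotypes. The uncharacterised gene 2210407C18Rik was at 259.8, 309 and 273 CPM in wild type, 701, 485, 567, 627 and 565 in heterozygotes and 183 to 233 (median 190.2) in homozygotes.

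Apob and Fabp9, on the list of antigens reported to depend on the factor Fezf2, had this shape too. Apob, an apolipoprotein of liver and gut, was at 17.7, 13.9 and 20.5 CPM in wild type, 33.4, 33.3, 28.3, 27.7 and 42.5 in heterozygotes and 5.34 to 10.9 (median 7.36) in homozygotes. Fabp9, a fatty acid carrier of testis, was at 374, 375 and 298 CPM in wild type, 681, 520.5, 419, 488 and 447 in heterozygotes and 172 to 267 (median 215) in homozygotes. Of the 11 genes on that list, 7 fell from heterozygote to homozygote and 1 rose. From wild type to heterozygote 6 rose and 2 fell, with a median of 0.67. Beside the counts of this and later lists stand the percentages over all tested genes. These were 14.1% lower and 6.4% higher in the second step, and 13.4% lower and 13.1% higher in the first. Some genes sit on more than 1 list, such as Apob and Resp18. Fezf2 itself was not called, with 1195 CPM in heterozygotes and 1265 in homozygotes (log2 change 0.15).

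Other genes were already far below wild type in heterozygotes, and their second step was not called. By a rule that took the deepest called falls from wild type to heterozygote among genes of the Aire-induced set not called in the second step, these were Mcidas, Zmynd10 and Dynlrb2, of motile ciliated cells, and Lce1i, of the cornified envelope. Mcidas, a regulator of multiciliated cells, stood at 7.99, 17.8 and 9.11 CPM in wild type, 0.458, 1.3, 0.744, 0.477 and 0.308 in heterozygotes and 0 to 0.543 in homozygotes. Zmynd10, needed to assemble ciliary dynein arms, was at 19.4, 31.2 and 19.4 CPM in wild type, 3.21, 0.864, 1.49, 1.19 and 1.85 in heterozygotes and 0.295 to 1.36 in homozygotes. Their second steps were -2.19 ± 0.89 and -1.26 ± 0.48 on the log2 scale and were not called (edgeR adjusted p = 0.0814 and 0.06). A missed call at these low counts does not show that no second fall took place. The Mcidas change was called without homozygote 93 and the Zmynd10 change without heterozygote 82, heterozygote 87 or homozygote 93 (log2 changes -3.96, -1.39, -1.40 and -1.63, edgeR adjusted p = 0.0134, 0.044, 0.0492 and 0.0226). Dynlrb2, a dynein light chain, was at 6.28, 26.8 and 12 CPM in wild type, 3.67, 0.864, 0.372, 0.477 and 0.924 in heterozygotes and 0 to 0.706 in homozygotes (log2 change -2.22 ± 0.88, edgeR adjusted p = 0.077), and its change was called without homozygote 83 and with a sex term (edgeR adjusted p = 0.0437 and 0.0178) and by DESeq2 (adjusted p = 0.0365). Lce1i was at 12.6, 15.9 and 6.83 CPM in wild type, 1.37, 0.864, 0.744, 0.239 and 0.308 in heterozygotes and 0 to 0.543 in homozygotes (log2 change -1.76 ± 0.84, edgeR adjusted p = 0.149).

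The genes that rose most were of low or middling abundance and rose far less than the antigens fell. Il4, a type 2 cytokine gene, stood at 12.6, 15.6 and 17.1 CPM in wild type, 34.4, 32, 23.8, 22.4 and 32 in heterozygotes and 64.6 to 73.5 (median 69.7) in homozygotes (log2 change 1.34 ± 0.12, edgeR adjusted p = 1.48e-10). Each genotype was apart from the others, as it was for Adam19, a membrane metalloprotease, at 10.8, 13.4 and 14.2 CPM in wild type, 24.7, 23.3, 23.4, 17.9 and 22.2 in heterozygotes and 30.9 to 50.8 (median 44.6) in homozygotes. Glipr1, of the CAP protein family, was called in the second step and not in the first, with 14.3, 17.5 and 14.8 CPM in wild type, 19.7, 15.6, 17.1, 18.6 and 20.3 in heterozygotes and 31.1 to 55.5 (median 42.6) in homozygotes. So was Gimap6, a lymphocyte GTPase, at 8.57, 8.47 and 10.2 CPM in wild type, 6.87, 8.21, 7.06, 11.2 and 8.94 in heterozygotes and 14.6 to 26.5 (median 19.1) in homozygotes.

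Kdm4d, a histone H3 demethylase gene, had the largest rise among the genes named by rule, at 1.37 ± 0.32 on the log2 scale (edgeR adjusted p = 0.00153), to a mean of 5.48 CPM. Cyp26a1, which degrades retinoic acid, rose from a mean of 82.1 to 163 CPM and Tulp2, a tubby-like protein gene, from 75.5 to 155. Ppp1r3c, which brings a phosphatase to glycogen, the calcium-binding protein gene S100a5, Ptchd4, of the patched family, and Btn2a2, a butyrophilin, rose by 1.24, 1.14, 1.08 and 1.06 on the log2 scale. Airn, a non-coding RNA antisense to Igf2r, rose by 1.06 ± 0.21, but the use of strand in counting is not stated, so reads of both cannot be told apart. Among abundant genes, S100a16 went from 1040.4, 1033, 1201, 1336 and 1248 CPM in heterozygotes to values from 1660.3 to 1938 (median 1903) in homozygotes. The acetylcholinesterase gene Ache went from 775, 1087, 818, 965 and 1152 CPM in heterozygotes to values from 1329.5 to 1453 (median 1404) in homozygotes, and Hal, the histidine ammonia-lyase gene, from 458, 444.04, 376, 427.28 and 506 CPM in heterozygotes to values from 580.2 to 711 (median 635) in homozygotes after 181, 227 and 189 in wild type.

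Genes of mature mTEC and antigen presentation were called higher in 7 of 25 tested cases and lower in 1, with a median log2 change of 0.12. The MHC class II genes H2-Aa and H2-Eb1 rose by 0.43 and 0.48 on the log2 scale, and Ciita, their transactivator, from 65.1, 69.1, 51.7, 67.1 and 69.6 CPM in heterozygotes to values from 79.1 to 91.8 (median 84.5) in homozygotes. The costimulatory genes Cd80 and Cd86 did not pass (-0.09 and -0.0033), and Epcam, an epithelial adhesion gene, fell by 0.33 on the log2 scale. From wild type to heterozygote, 17 of the 25 had risen and none had fallen, with a median of 0.55. In the NF-kB and RANK list 8 of 20 rose and 1 fell (median 0.19): Relb and Map3k14, which encode the transcription factor and the kinase of the non-canonical pathway, rose by 0.44 ± 0.10 and 0.40 ± 0.09 (edgeR adjusted p = 0.0018 and 0.00162), with overlapping ranges of 367, 436.27, 312, 469 and 473 against 463 to 579 CPM for Relb.

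Of 8 tested neighbours of Aire on chromosome 10, Icosl and Dnmt3l rose and 6 were not called. Icosl, the ICOS ligand gene, stood at 207, 198 and 246 CPM in wild type, 231, 247, 289.6, 276 and 327 in heterozygotes and 347 to 493 (median 395) in homozygotes. Dnmt3l, a regulator of DNA methylation, was at 49.7, 59.3 and 47.8 CPM in wild type, 64.1, 51.4, 53.5, 69.2 and 61.6 in heterozygotes and 74.1 to 103 (median 82.3) in homozygotes. Neither showed overlap between heterozygotes and homozygotes, and the log2 changes were 0.63 ± 0.11 and 0.56 ± 0.11 (edgeR adjusted p = 3.35e-05 and 0.000137).

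Genes of the thymic chemokine list, which holds attractants of several cell types, were lower in 10 of 17 cases and higher in 1. Their median log2 change was -0.90, and Ccl21a was not among those tested. From wild type to heterozygote, 5 had risen and 1 had fallen, with a median of -0.04. Ccl5 stood at 1002, 1054 and 1383 CPM in wild type, 1432, 1123, 1308, 1013 and 1015 in heterozygotes and 273 to 505 (median 348) in homozygotes (log2 change -1.6 ± 0.14, edgeR adjusted p = 1.13e-08). Wild types and heterozygotes of Ccl5 overlapped, and homozygotes lay below both. Cxcl1, a neutrophil attractant, was at 106, 114 and 119.6 CPM in wild type, 111, 110.1, 112, 87.4 and 112 in heterozygotes and 42.7 to 65.2 (median 49.9) in homozygotes, and Ccl27a, known from skin, at 550.4, 431.01 and 561 CPM in wild type, 465, 362, 482, 353 and 359 in heterozygotes and 171 to 235 (median 201) in homozygotes. Xcl1, which attracts cross-presenting dendritic cells, fell from 18.4 to 1.38 CPM. The thymocyte-attracting Ccl25 and the interferon-induced Cxcl10 did not pass, at log2 changes of 0.13 and 0.09.

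Interferon-stimulated genes fell in 11 of 22 cases and rose in none (median -0.36). Isg15, a ubiquitin-like modifier, stood at 206, 181 and 202 CPM in wild type, 70.6, 99.8, 116, 80 and 76.4 in heterozygotes and 34.2 to 51.7 (median 44.3) in homozygotes. It fell in both steps, by 1.02 and 0.96 on the log2 scale, whereas Oas3, an antiviral RNA sensor, was not called in the first (-0.23 ± 0.19, edgeR adjusted p = 0.394) and changed by -0.76 ± 0.16 in the second (edgeR adjusted p = 0.000628). Keratinocyte-like genes fell in 10 of 18 cases and rose in none (median -0.67). Krt10, a keratin of differentiating epidermis, was at 191, 184 and 170.2 CPM in wild type, 69.2, 88.5, 96.7, 76.9 and 67.2 in heterozygotes and 20.3 to 48.8 (median 37) in homozygotes. Sprr1a, of the cornified envelope, was at 682, 559 and 726 CPM in wild type, 443.02, 383, 479.6, 408 and 433.89 in heterozygotes and 169 to 286 (median 223) in homozygotes. Tuft cell genes were near the background, with 3 of 19 lower and none higher, and Trpm5 and Pou2f3, the channel and the factor that define tuft cells, did not pass at -0.16 and -0.00029.

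Transcription factors of mimetic cells, the mTEC that take on features of other tissues, moved in both directions, with 7 of 22 lower and 6 higher. Hnf4a, of gut and liver, was at 3.43, 4.1 and 10.8 CPM in wild type, 4.12, 5.62, 5.21, 5.25 and 5.24 in heterozygotes and 0.706 to 2.67 (median 1.15) in homozygotes. Foxi1, of ionocytes, had fallen to 1.83, 2.16, 1.86, 0.955 and 2.47 in heterozygotes after 14.8, 15.9 and 12.5 in wild type, and homozygotes held 0 to 0.561. Spib, of microfold cells, and Insm1, of endocrine cells, rose by 0.33 and 0.32 on the log2 scale.

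Partners that AIRE is reported to bind were nearly all uncalled: 1 of 25 rose, Ccnt1, a cyclin of the elongation factor P-TEFb (0.39 ± 0.12, edgeR adjusted p = 0.0151), and none fell. Tight junction genes held 1 rise and 2 falls among 15, with Cldn7 at 465, 484 and 517 CPM in wild type, 589.6, 542, 683, 559 and 533 in heterozygotes and 379.9 to 473 (median 399) in homozygotes. Immature mTEC genes held 2 rises and 2 falls among 12. Krt15, a basal keratin, fell from 11, 17.3, 10.4, 21.2 and 14.2 CPM in heterozygotes to values from 2.67 to 9.75 (median 4.11) in homozygotes, while Krt5 and Krt14 did not pass (-0.24 and -0.14). Of 20 immediate-early and heat-shock genes, which respond to cell handling, 1 fell, Hsph1 (-0.40 ± 0.10, edgeR adjusted p = 0.00446), and none rose. Of 17 proliferation genes none fell and 1 rose, Plk1 (0.47 ± 0.17, edgeR adjusted p = 0.047). The Plk1 call was lost with only both compared genotypes in the fit, with a sex term, and without any of heterozygotes 81, 85 and 91 and homozygotes 80, 83 and 90 (edgeR adjusted p from 0.0676 to 0.136).

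Markers of other cells that a sort could carry did not all move one way. Thymocyte markers were higher in 4 of 16 cases and lower in none, and the 20 listed markers summed to 236 to 379 CPM in wild type, 159 to 191 in heterozygotes and 172 to 277 in homozygotes. Cd4 rose from 11.9, 11.7, 8.55, 15.3 and 17.3 CPM in heterozygotes to values from 18.5 to 29.9 (median 22.3) in homozygotes and Tcf7 from 19.7, 19.9, 21.6, 12.9 and 17.6 CPM in heterozygotes to values from 20.5 to 33.7 (median 27.7) in homozygotes, while Cd3d did not pass at 7 and 6.44, nor did Ptprc at 4.46 and 3.14. Rag2 and Rhoh were not analysed here. The rise of Lck (edgeR adjusted p = 0.0417) was lost with only both compared genotypes in the fit, without any of heterozygotes 81 and 91 and homozygotes 83, 92 and 93 (edgeR adjusted p from 0.0504 to 0.105), and by DESeq2 (adjusted p = 0.0529). Myeloid and dendritic markers held 2 rises and 4 falls among 19, summing to 1499 to 2177 CPM in heterozygotes and 1814 to 1908 in homozygotes. Ccr7, which guides dendritic cells, rose (0.51 ± 0.11, edgeR adjusted p = 0.000457) and Cd14 and Itgam fell (-1.18 ± 0.20 and -1.44 ± 0.34, edgeR adjusted p = 3.86e-05 and 0.00177).

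B cell markers held 3 rises and 1 fall among 10, at 211 to 229 CPM in heterozygotes and 207 to 256 in homozygotes. Fibroblast and endothelial markers held 2 rises and 1 fall among 11, at 278 to 390 and 310.0 to 461 CPM, with the collagen gene Col1a1 down from 15.1, 16.8, 8.55, 15 and 17.6 CPM in heterozygotes to values from 1.07 to 3.54 (median 1.98) in homozygotes. Cortical epithelial markers held 2 rises and 2 falls among 13, at 6141 to 7185 and 7121 to 8567 CPM. Of erythroid markers, 3 were tested: Hbb-y and Slc4a1 fell, the latter to 0 in every homozygote and at least 8.84-fold lower, and Alas2 did not pass at 36.7 and 39.4 CPM. The part of such cells in the antigen falls was not tested.

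The same step, from 1 normal copy to none, was available in the B6 null line (Aire-/- against Aire+/-, 4 libraries against 5) and in the Y86C line (Y86C/Y86C against +/Y86C, 3 against 3), all mTEChi of C57BL/6 mice of the same age range. The lines were not matched for sex. Every Y86C library of this step held Xist at female levels (65.8 to 92.5 CPM). Among the null homozygotes only Aire_KO_429 looked male (Xist 8.82 and Ddx3y 98.2 CPM). It called 4287 of 12700 genes (33.8%) in the null line, 2068 higher (16.3%) and 2219 lower (17.5%), and 5190 of 13309 (39%) in the Y86C line, 2133 higher (16%) and 3057 lower (23%). Of the genes tested in both, those lower in the C442G step and in the null step numbered 1167, which is 70.9% of the C442G list and 53.8% of the null list, where 17.3% of common genes were lower in the null step. Those higher in both numbered 586, or 68.4% of the C442G list and 28.4% of the null list, where 16.5% of common genes were higher. These lines have no library in common.

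A joint fit tested the difference between the steps gene by gene. It had no term for sex, and a part of sex in these differences was not tested. Of 14277 genes, 863 (6.04%) differed between the C442G and the null step, 353 (2.47%) with a higher and 510 (3.57%) with a lower log2 change in C442G. Against the Y86C step 1091 (7.64%) differed, 343 (2.4%) higher and 748 (5.24%) lower, and by DESeq2 399 higher and 561 lower. Without the null homozygote Aire_KO_429 the 353 became 217, and without Y86C homozygote 4 or 5 the 343 became 180 or 213. The median difference over all genes was 0.02 and -0.03.

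The raised set had smaller rises in the C442G step than in the null step. Of its 595 genes in the joint fit, 259 had a lower log2 change in C442G and none a higher one, with a median difference of -0.64, and against the Y86C step 250 were lower and 2 higher, with -0.62. Of the 1289 genes of the Aire-induced set, 119 had a higher value in C442G than in the null line and 3 a lower one (median 0.60), and 192 and none against Y86C (median 1.13). Both sets were chosen on the null homozygotes, which also enter the null step, so the figures against that step are a description. Of 25 mature mTEC genes 20 rose in the null step, and 6 had a lower change in C442G than there. Of 20 NF-kB genes 14 rose in the null step, and 4 were lower in C442G.

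The single genes below had the largest differences by rule. Ctla4, whose product restrains T cell activation, stood at 4, 7.38 and 6.83 CPM in C442G wild type, 54.5, 43.2, 32, 31.5 and 51.8 in heterozygotes and 54.3 to 83.3 (median 58.6) in homozygotes, with overlap between the mutant genotypes. Its mean went from 6.26 to 50.3 CPM in the null step and from 11.6 to 65.3 in the Y86C step. The difference from these steps was -2.41 ± 0.30 and -2.04 ± 0.31 on the log2 scale (edgeR adjusted p = 1.29e-06 and 2.97e-05). Most of its rise in the C442G line had therefore been reached in the heterozygotes, by 2.86 ± 0.24. Hal and Map3k14 also differed from the null step, by -0.66 ± 0.12 and -0.62 ± 0.12 (edgeR adjusted p = 0.000137 and 0.000658).

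Khdc3, of the oocyte's maternal complex, fell less in the C442G step than in the null step. It was at 21.1, 30.6 and 26.2 CPM in C442G wild type, 3.21, 4.75, 2.6, 3.34 and 5.55 in heterozygotes and 0.591 to 1.26 (median 1.08) in homozygotes, whereas the null step took it from a mean of 11.9 to 0.364. The difference was 2.9 ± 0.63 (edgeR adjusted p = 0.00201). The plasma protein gene Itih3 and the kinase gene Ttbk1 differed likewise, by 2.57 ± 0.67 and 2.81 ± 0.64 (edgeR adjusted p = 0.0106 and 0.00326). A few genes fell further in the C442G step: Ly6c2, of the Ly6 family with close copies, went from 25.2, 16.4, 23.8, 22.7 and 29 CPM in heterozygotes to values from 0.8 to 4.59 (median 2.11) in homozygotes, against means of 42.2 and 16.2 in the null step (difference -2.0 ± 0.44, edgeR adjusted p = 0.00485), and Bgn, a matrix proteoglycan, from 11, 14.3, 13.8, 21.5 and 21.3 CPM in heterozygotes to values from 0.534 to 5.32 (median 2.2) in homozygotes (difference -2.14 ± 0.54, edgeR adjusted p = 0.0146). Lypd8 changed by 0.01 ± 0.16 in the null step, which was not called, and its C442G step differed by -0.97 ± 0.18 and -0.81 ± 0.20 from the null and Y86C steps (edgeR adjusted p = 0.000533 and 0.00953). Apob and Fabp9 fell in the null step as well, by log2 changes of -1.88 and -1.08 (edgeR adjusted p = 0.0162 and 0.000489). In the Y86C step they changed by -2.37 and -1.05 (edgeR adjusted p = 1.26e-08 and 0.000325). Resp18 was called in neither of these steps.

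For the deepest antigens no difference between the steps passed. Ins2 went from a mean of 35.8 to 0.0691 CPM in the null step and from 74.7 to 0.166 in the Y86C step, and its difference from the null step was 1.32 ± 1.78 (edgeR adjusted p = 0.754). For Avp the difference was 0.71 ± 0.82 (edgeR adjusted p = 0.707) and for Ppy -1.1 ± 0.84 (edgeR adjusted p = 0.523). At these counts the standard errors are wide. Aire transcript rose in both other steps too, and its difference was 0.15 ± 0.13 from the null and -0.41 ± 0.15 from the Y86C step (edgeR adjusted p = 0.575 and 0.0753).

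**Figure D5:**
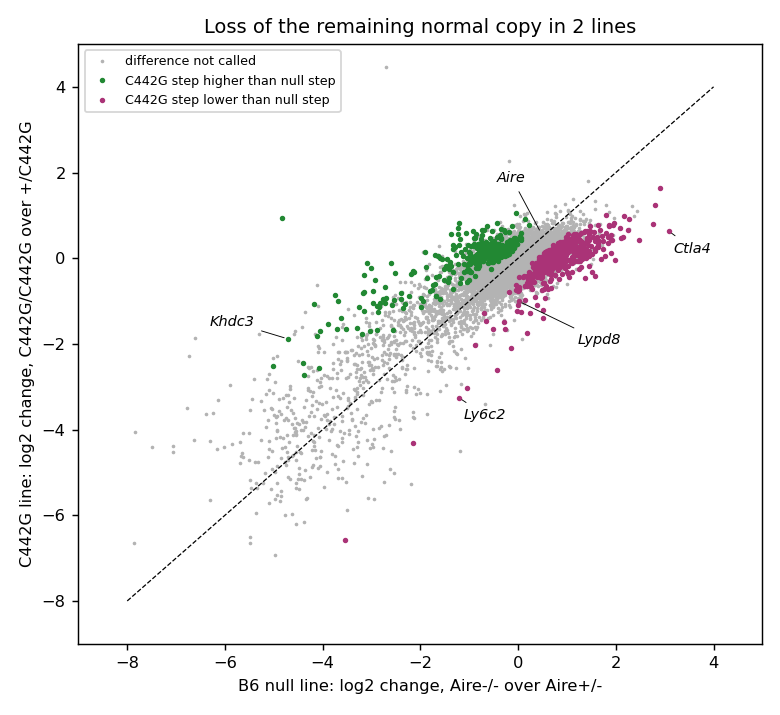
Log2 change of each of 12558 genes tested in both lines from heterozygote to homozygote, in the B6 null line (x) and the C442G line (y), with a dashed line of equality. Coloured points are the 844 of these genes whose difference between the steps was called; Ctla4 and Ly6c2 lie below the line and Khdc3 above it.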

How the data were processed

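Bulk MARS-seq libraries were compared from raw counts per gene in the authors' deposited tables of the C442G, B6 null and Y86C lines. Every gene listed for C442G reaches 6 counts in some library. The submitters' processing notes name build mm10 and the tools STAR 2.4.2a, HTSeq, DESeq2, cutadapt and bcl2fastq; settings, annotation, strand use and the handling of molecular identifiers are not given in the sources used here. The authors' deposited log2 fold changes and adjusted p-values were used only for their count of calls. Genotypes came from titles and genotype labels. A B6 library titled wt_438 with the genotype label Aire -/- was left out.

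Tests used edgeR 4.0.16 under R 4.3.3 (TMM factors, filterByExpr, robust quasi-likelihood F test) with all 14 C442G libraries in 1 fit, and a joint fit of the 3 tables for differences between steps. CPM are counts over library total. A call is an adjusted p under 0.05 (Benjamini-Hochberg, every tested gene), with DESeq2 1.42.0 as an alternative. Other alternatives were RLE factors, no filter, only both genotypes, a sex term, each library left out and other gene sets. Ratios against 1 to 3 counts carry a 95% counting interval, and bounds against 0 use a floor of 3 counts over the group. Scripts were tested on simulated data.

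Named genes were Aire, up to 12 each way with the largest called change (ranges apart and a mean of 5 CPM or more on the higher side), up to 3 called members of each of 28 lists by p, the 5 most abundant called genes each way (at least 2-fold lower or 1.5-fold higher), 4 genes that fell in heterozygotes with no call in the second step, and 4 each way for each difference between lines. Other list members, Tff3, Reg3g and the like, were chosen after their values were seen. A few list members are not reported here. The comparison, the lists and the rule were chosen with earlier results of these data known. A comparison of promoters between gene sets was dropped because under 80% of genes had an entry.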

Additional observations from a re-analysis of the deposited data

Results flagged for a closer look

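Among 180 groups of 5 or 6 libraries checked for a value far from the rest, 14 (7.78%) held one, and chance gives about 1 in 20. In heterozygotes the lowest library stood apart for Cyp26a1 (46.1 CPM), Cryaa (11.5), Ciita (51.7) and Col1a1 (8.55), each time heterozygote 85. It also stood apart for Cma1 (3.46), in heterozygote 82, and for Cxcl1 (87.4) and Hnf4a (4.12). The flags are thus not spread evenly over the libraries. The highest heterozygote stood apart for Fgg (18.6 CPM) and Crybb2 (14.3), both in heterozygote 82, and for Ifi44 (24.3), S100a4 (558) and Panct2 (10.4). In homozygotes the highest library stood apart for S100a4 (824 CPM) and Ctla4 (83.3).

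The steps from heterozygote to homozygote differed between lines in the joint fit. Relative to the null step, the log2 change in C442G was lower by the amounts -2.41 for Ctla4, -2.14 for Bgn, -2.09 for Cxcl17 and -2.0 for Ly6c2. It was higher by 2.90 for Khdc3, 2.81 for Ttbk1, 2.74 for Prdm14, a germline regulator, and 2.57 for Itih3. The Cxcl17 difference (edgeR adjusted p = 0.0385) was lost by DESeq2 (adjusted p = 0.0595). It was also lost without any of heterozygote 81, homozygotes 80, 90 and 92 and the null libraries Aire_het_435, Aire_het_439, Aire_KO_429 and Aire_KO_431 (edgeR adjusted p from 0.05002 to 0.147).

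Relative to the Y86C step it was lower by the amounts -2.12 for Ptchd4, -2.04 for Ctla4, -2.32 for Panct2 and -2.23 for Clhc1. It was higher by 5.77 for Slc17a2, 5.70 for Psg27, 5.68 for Atp12a and 5.6 for Slc6a13. The last 4 genes had no count in any Y86C homozygote, so these values depend on the prior count of the fit and are no measure of size. The Clhc1 difference was lost without Y86C heterozygote 14 (edgeR adjusted p = 0.0626), and the Atp12a difference without homozygote 93 or Y86C homozygote 4 or 5 (edgeR adjusted p = 0.0641, 0.0824 and 0.0801).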

How the results depend on the processing

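No paired analysis was possible because the labels of the C442G line link no library of 1 genotype to a library of another. The 2798 calls between homozygotes and heterozygotes were 3034 by DESeq2, 2856 with RLE factors, 3203 without a filter, 2782 with a sex term and 2100 with only both genotypes in the fit, where 1283 genes were lower. Leaving out 1 library gave 2555 to 2774 calls, 741 to 935 higher and 1671 to 1891 lower. Calls of a difference from the null step ran from 594 to 947 with a library left out (217 to 400 higher, 377 to 560 lower) and from the Y86C step from 771 to 1111 (180 to 356 higher, 543 to 781 lower).

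The percentage of the Aire-induced set called lower ran from 69.6% to 71.5% with a library left out and was 46.7% with no fold limit on the set. The drop of the set's share of counts, -1.66 percentage points, was -2.83 with no fold limit, -0.40 for the 200 genes with the smallest p, -1.44 without its 5 most abundant genes and -2.33 for the set taken from Y86C homozygotes, and -1.69 to -1.61 with a library left out. The difference in detected genes ran from -927 to -871 with a library left out and was -990 at a minimum of 3 counts.

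Over the named genes and these alternatives, values of the main comparison were counted as unchanged in 1805 cases, lost a call in 29 and gained one in 7. No called value changed direction. Any change of direction of an uncalled value is counted among the unchanged cases. Lost calls included those of Chat, Enpep, Lck, Lum, Plk1 and Prdm14. Depth limits genes near 1 CPM, where a library holds only a few counts. The cause of each shift was not tested, except that the fit with only both genotypes has fewer libraries and fewer genes tested.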

Other observations

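A gene that passed no filter in the C442G line, the neuronal transcription factor gene Nhlh2, had 7880 counts (2930 CPM) in heterozygote 85 and at most 2 in each of the other 13 libraries. It was the only gene of the table with at least 30 counts in 1 library and at least 20 times the next highest. In the B6 null line it had 9433 and 846 counts in the wild-type libraries Aire_wt_432 and Aire_wt_434 and none in the other wild type, 0 to 7 in heterozygotes and 0 to 1 in Aire-/-. It was picked after its values were seen, and it adds to the neural list's summed level in heterozygote 85 only, as the gene itself was not tested.

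Mir692-1 was similar in kind, with 245 and 241 CPM in homozygotes 84 and 90 and 2.53 to 4.08 in the other 4, against 2.16 to 5.95 in heterozygotes and 3.43, 128 and 7.4 in wild type (edgeR adjusted p = 0.101). Trim30d, of the tripartite motif family, stood at 64.1 CPM in homozygote 93 and at 1.57 to 5.32 in the other homozygotes (edgeR adjusted p = 0.191). The secretoglobin gene Scgb1b27 stood at 26.4 CPM in homozygote 84 and at 0 to 1.41 in the others (edgeR adjusted p = 0.332). None of these was called, and all were picked after their values were seen.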
